A study of Mus musculus with 11 samples.

Results

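Interferon-stimulated genes were followed in B16-OVA cells, which derive from a melanoma of the C57BL/6J mouse strain and carry ovalbumin. A list of 38 such genes was taken by name from a table of 54686 gene entries. In all 4 groups the cells had received siRNA 48 h before the heat step. The first group had a siRNA pool against YAP and TAZ, 1 h at 45 °C and 6 h of recovery (heated YAP/TAZ siRNA, n = 3). The others had the YAP/TAZ pool with no heat (unheated YAP/TAZ siRNA, n = 3), control siRNA with the same heat and recovery (heated control siRNA, n = 2, replicates 1 and 3), and control siRNA with no heat (unheated control siRNA, n = 3). Replicate 2 of the heated control siRNA group was not analysed here. Because the labels do not call the replicates separate cultures, a p-value below speaks of the scatter among these libraries, part or all of which may be technical.

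Interferons are secreted alarm signals of virus infection and of nucleic acid in the cytosol. They bind paired receptor chains whose Janus kinases phosphorylate STAT proteins, and the complex of STAT proteins with IRF9 then binds the interferon-stimulated response element (ISRE) in front of its target genes. The targets encode sensors that feed back on interferon production, effectors that block viral RNA and protein synthesis, and regulators of the pathway itself. YAP and TAZ are co-activators of the Hippo pathway, which the study set against the heat shock response.

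Of the 38 genes, 29 matched the RefSeq promoter table (GRCm38.p6), which gives 250 bases before and 50 after a start site. The core of the ISRE, GAAANNGAAA on either strand, was present in 16 of these 29 windows and in 3.99% of 27025 genes in the table. The GAS element, TTCNNNGAA, which reads the same on both strands and binds STAT dimers, was present in 7 of 29 members and in 9.55% of genes. A heat shock element, GAANNTTCNNGAA on either strand, was present in 1 member, Bst2, and in 0.662% of genes. Its GAA blocks can share bases with an ISRE core. The 6 windows below show the range of spacing and number of ISRE cores in genes described further on. Each is written 5′ to 3′ on the strand of its gene, and capitals mark the ISRE core.
Isg15: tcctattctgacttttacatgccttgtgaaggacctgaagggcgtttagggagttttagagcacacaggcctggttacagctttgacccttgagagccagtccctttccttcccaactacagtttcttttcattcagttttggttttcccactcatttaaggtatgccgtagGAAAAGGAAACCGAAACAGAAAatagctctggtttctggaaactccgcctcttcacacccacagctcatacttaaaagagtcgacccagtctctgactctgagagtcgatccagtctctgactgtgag
Ifit1: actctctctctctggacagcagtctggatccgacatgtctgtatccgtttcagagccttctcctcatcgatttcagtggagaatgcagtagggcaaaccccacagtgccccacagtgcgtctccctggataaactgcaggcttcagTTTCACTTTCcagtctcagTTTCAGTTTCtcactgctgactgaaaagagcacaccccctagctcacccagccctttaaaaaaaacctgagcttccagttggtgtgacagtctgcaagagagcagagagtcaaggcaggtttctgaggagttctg
Ifit3: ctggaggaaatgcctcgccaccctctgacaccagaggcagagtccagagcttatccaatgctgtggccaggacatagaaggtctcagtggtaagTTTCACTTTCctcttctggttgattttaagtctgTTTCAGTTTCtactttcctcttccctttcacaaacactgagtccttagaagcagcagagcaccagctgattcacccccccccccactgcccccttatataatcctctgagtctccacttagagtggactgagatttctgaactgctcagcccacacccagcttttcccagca
Ifit3b: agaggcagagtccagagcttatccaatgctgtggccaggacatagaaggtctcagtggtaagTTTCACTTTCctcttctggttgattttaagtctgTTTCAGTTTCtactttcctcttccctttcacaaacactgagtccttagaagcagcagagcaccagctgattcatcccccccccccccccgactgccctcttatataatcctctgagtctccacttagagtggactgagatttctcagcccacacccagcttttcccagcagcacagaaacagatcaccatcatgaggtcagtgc
Ddx58: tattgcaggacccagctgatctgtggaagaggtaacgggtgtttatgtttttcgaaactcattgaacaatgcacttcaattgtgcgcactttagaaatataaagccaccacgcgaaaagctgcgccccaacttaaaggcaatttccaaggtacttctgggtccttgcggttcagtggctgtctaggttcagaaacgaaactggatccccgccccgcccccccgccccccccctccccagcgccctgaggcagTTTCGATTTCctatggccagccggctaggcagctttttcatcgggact
Stat2: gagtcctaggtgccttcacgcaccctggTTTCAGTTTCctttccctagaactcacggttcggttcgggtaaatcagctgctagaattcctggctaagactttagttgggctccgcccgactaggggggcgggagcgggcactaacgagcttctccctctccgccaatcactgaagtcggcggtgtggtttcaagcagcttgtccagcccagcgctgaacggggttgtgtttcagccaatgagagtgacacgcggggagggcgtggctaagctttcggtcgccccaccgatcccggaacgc
Isg15 (chr4:156200769-156201068, minus strand) had 3 overlapping cores in 1 run, from positions -78 to -57 relative to its start. Ifit1 (chr19:34640639-34640938, plus strand) had a pair of cores that began at positions -104 and -85. Those of Ifit3 (chr19:34583279-34583578, plus strand) began at positions -156 and -122. Ifit3b (chr19:34607707-34608006, plus strand), a near-identical copy of Ifit3, carried the same pair at positions -188 and -154, and 258 of 300 bases of the 2 windows aligned as identical. In Ddx58 (chr4:40239776-40240075, minus strand) the single core began at position 3 after the start. In Stat2 (chr10:128270248-128270547, plus strand) it began at position -222.

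Levels were given in FPKM, fragments per kilobase of gene, scaled to the size of the library, which allow genes of different length to be compared. The smallest step between low values put 30.5 to 43.9 steps behind 1 FPKM on a gene of 1 kb. The sources used here do not tell whether such a step was a read or a fragment, and this precision covers counting error only. The siRNA targets Yap1 and Wwtr1 separated the libraries as labelled. Yap1 was at 2.61, 2.26 and 2.29 FPKM in heated and 2.75, 3.02 and 2.54 FPKM in unheated YAP/TAZ siRNA libraries, against 10.9 and 5.96 FPKM in heated and 7.26, 5.79 and 15.6 FPKM in unheated control siRNA libraries. Wwtr1, which encodes TAZ, was at 1.40 to 1.83 FPKM in the 6 YAP/TAZ siRNA libraries, against 5.37 to 8.47 FPKM in the 5 control siRNA libraries. The 7 melanocyte markers summed to 6261 to 8191 FPKM per library. Among markers of other cell types, the leukocyte gene Ptprc, the plasmacytoid dendritic cell gene Siglech and the T and B cell genes Cd3d, Cd8a and Ms4a1 were listed at 0 in all 11 libraries, while others were not, as given with the heat response below.

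A gene was tested where it reached 1 FPKM in at least 2 of 11 libraries, which 31 of the 38 members and 12626 genes in all did. Oas2 and Gbp7 passed only through unheated YAP/TAZ siRNA libraries and Oasl1 only through heated control siRNA libraries, so each of these had to differ between groups. Parp14 and Xaf1 reached 1 FPKM in YAP/TAZ siRNA libraries only, heated and unheated, so the filter favoured a difference between the siRNAs for them. Values of all these genes are given as a description, with no p for the comparison that the filter fixed or favoured. Counts are also given over the 28 members that reached 1 FPKM in at least 2 groups. The 28 still hold Parp14 and Xaf1. Just inside the threshold lay Oas2, Gbp7 and Dhx58, with second highest values of 1.22, 1.27 and 1.48 FPKM. Just outside lay Irf7, with a second highest value of 0.915 FPKM. The other members that were not tested were Zbp1, Oas3, Oasl2, Mx1, Trim25 and Ifi44. Summed over the 38 members, levels were 302 to 331 FPKM in heated and 329 to 403 FPKM in unheated YAP/TAZ siRNA libraries, against 165 to 195 FPKM in heated and 170 to 184 FPKM in unheated control siRNA libraries. Bst2 and Ifi27 made up much of this. Without them the sums were 118 to 142 FPKM and 179 to 209 FPKM under YAP/TAZ siRNA, heated and unheated, against 73.1 to 80.8 FPKM and 83.6 to 89.8 FPKM under control siRNA. In cells grown as a bulk culture, a change in RNA per cell and a change in the number of cells that express a gene cannot be told apart.

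**Figure D1:**
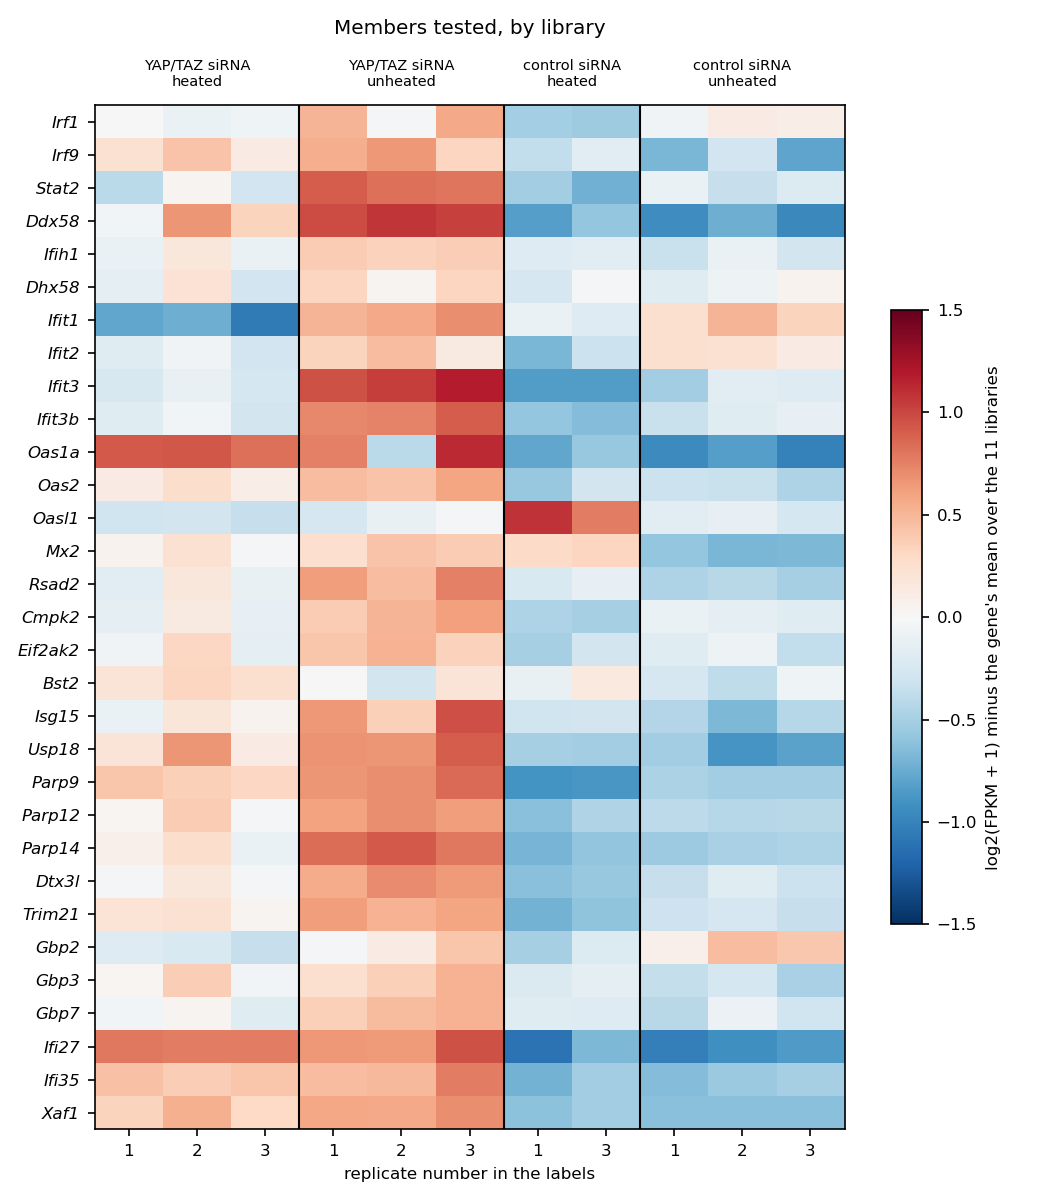
Levels of the 31 tested members in each of the 11 libraries, as log2(FPKM + 1) minus the mean of that gene over all libraries. Rows are genes grouped by role and columns are libraries, with the heated and unheated YAP/TAZ siRNA libraries left of the control siRNA ones. Most rows are highest in the unheated YAP/TAZ siRNA libraries, while Oasl1 is highest in the heated control siRNA libraries.

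Without heat, most of the interferon-stimulated genes were higher under YAP/TAZ siRNA than under control siRNA. Sensors, signalling factors, antiviral effectors and the ISG15 system were all represented, and the RIG-I gene Ddx58, Ifi27 and Usp18 had the largest changes among called genes. Of the 31 tested members, 24 rose and 0 fell, where 27.1% of all 12626 genes were called higher and 21.9% lower (limma, adjusted p under 0.05). Of the 28 members that reached 1 FPKM in at least 2 groups, 22 rose, Parp14 and Xaf1 among them. The median log2 change was 1.00 over the 31 and 1.03 over the 28, against 0.023 over all genes tested. The unheated YAP/TAZ siRNA libraries lay above every unheated control siRNA library for 25 members, and below for 0, where this held for 32.0% and 26.3% of all genes. All changes given here are log2 changes of FPKM + 1 with a standard error, a scale that understates the change of genes at low FPKM.

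The transcription factors came first in the pathway. Irf9, which gives the STAT complex its DNA contact, was at 3.17, 3.80 and 2.88 FPKM in heated and 4.21, 4.57 and 3.44 FPKM in unheated YAP/TAZ siRNA libraries, against 1.75 and 2.21 FPKM in heated and 1.22, 1.93 and 1.05 FPKM in unheated control siRNA libraries. The YAP/TAZ siRNA libraries were above every control siRNA library, with or without heat. Irf9 rose by 1.09 ± 0.15 (adjusted p = 0.000238) without heat. It overlaps Rnf31 on the same strand by 123 bases in GENCODE M21, and reads there could belong to either gene.

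Stat2, its partner, was at 1.75, 2.73 and 1.98 FPKM in heated and 5.80, 5.44 and 5.33 FPKM in unheated YAP/TAZ siRNA libraries, against 1.52 and 1.20 FPKM in heated and 2.37, 1.85 and 2.16 FPKM in unheated control siRNA libraries. The 3 unheated YAP/TAZ siRNA libraries stood above all 8 others, which were within 1.20 to 2.73 FPKM. Stat2 rose by 1.06 ± 0.12 (adjusted p = 6.51e-05) without heat. Irf1, an early factor of the interferon gamma response, was at 2.22, 2.02 and 2.09 FPKM in heated and 3.60, 2.19 and 3.82 FPKM in unheated YAP/TAZ siRNA libraries, against 1.27 and 1.23 FPKM in heated and 2.12, 2.53 and 2.47 FPKM in unheated control siRNA libraries. Without heat the groups overlapped through replicate 2 of the YAP/TAZ siRNA cells, and the change of 0.30 ± 0.14 (adjusted p = 0.106) was not called. Without that library it was 0.48 and called.

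Among the sensors of cytosolic RNA, Ddx58 (RIG-I, chr4:40203773-40239828) was at 4.98, 8.70 and 6.74 FPKM in heated and 11.04, 11.9 and 11.5 FPKM in unheated YAP/TAZ siRNA libraries, against 2.46 and 3.09 FPKM in heated and 2.20, 2.70 and 2.13 FPKM in unheated control siRNA libraries. No YAP/TAZ siRNA library overlapped a control siRNA library. The rise without heat was 1.90 ± 0.16 (adjusted p = 1.09e-05), the largest log2 change of any tested member in that comparison, and the mean FPKM was 4.90 times that of control siRNA. Ifih1 (MDA5), a sensor of long double-stranded RNA, was at 1.12, 1.55 and 1.13 FPKM in heated and 1.97, 1.89 and 1.93 FPKM in unheated YAP/TAZ siRNA libraries, against 0.981 and 1.03 FPKM in heated and 0.805, 1.12 and 0.876 FPKM in unheated control siRNA libraries. It rose by 0.60 ± 0.089 (adjusted p = 0.000413) without heat. Dhx58 (LGP2), a regulator of the other sensors, was at 0.812, 1.30 and 0.633 FPKM in heated and 1.48, 1.04 and 1.49 FPKM in unheated YAP/TAZ siRNA libraries, against 0.663 and 0.947 FPKM in heated and 0.745, 0.884 and 1.07 FPKM in unheated control siRNA libraries. Its groups overlapped in every comparison, and the change without heat was 0.30 ± 0.14 (adjusted p = 0.108), which was not called. The antisense gene Dhx58os overlaps it, and the strandedness of the counting is not given in the sources used here.

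**Figure D2:**
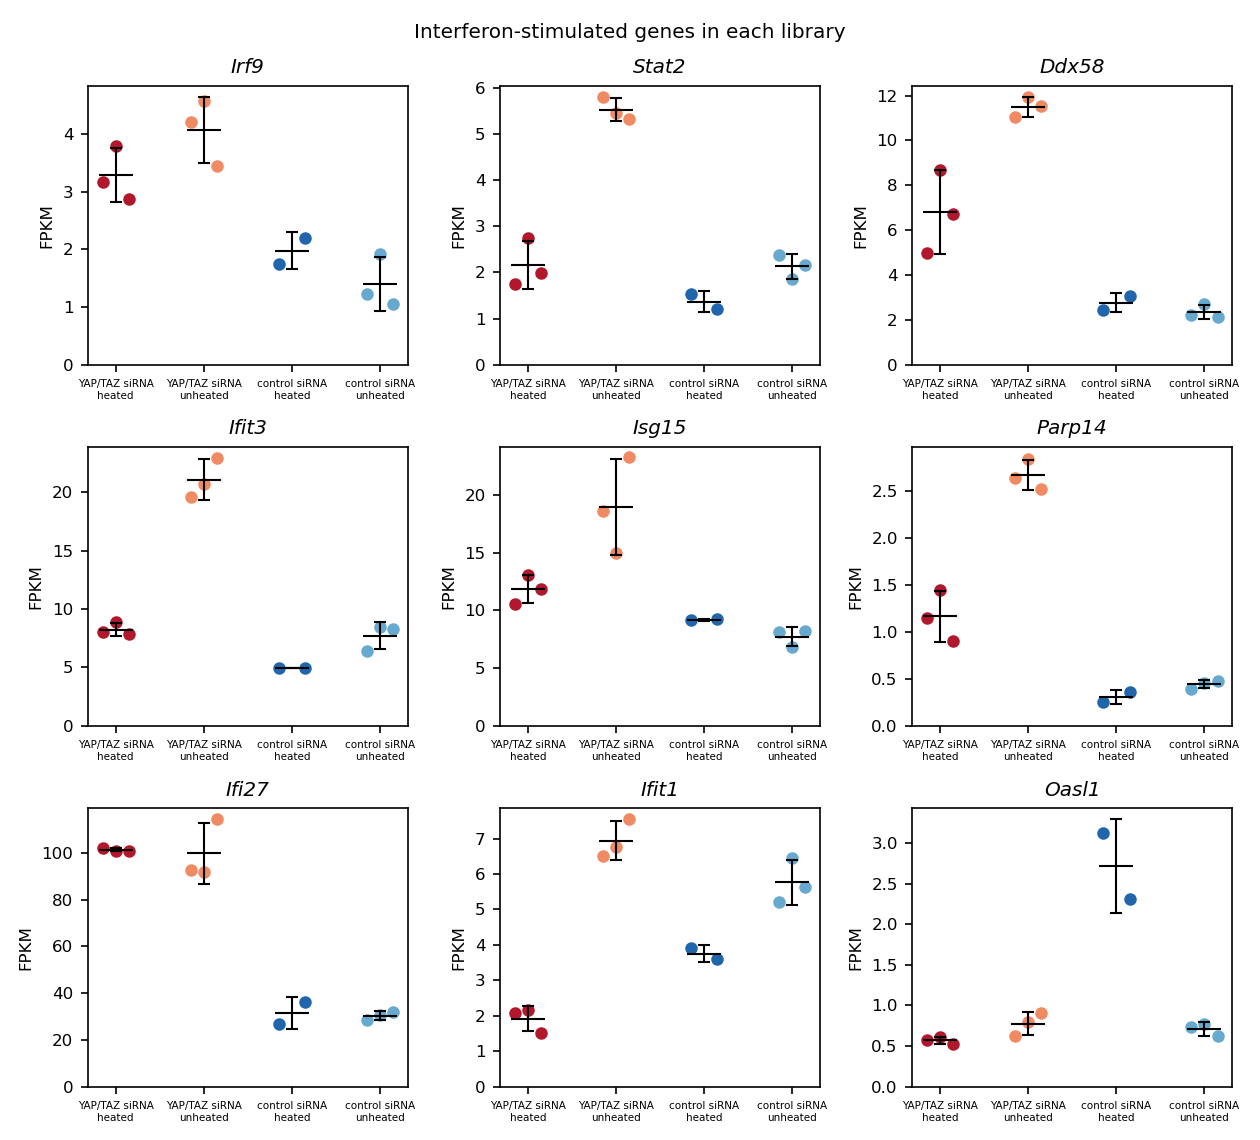
FPKM of 9 members in every library (points), with the mean and the SD of each group (n = 2 in heated control siRNA cells, n = 3 in the others). Ddx58 averaged 6.80 FPKM in heated and 11.5 FPKM in unheated YAP/TAZ siRNA cells, against 2.77 and 2.34 FPKM in heated and unheated control siRNA cells, whereas Oasl1 was high in heated control siRNA cells alone.

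The IFIT proteins bind viral RNA ends and translation factors, and their 4 genes lie side by side within chr19:34550694-34650009. Without heat, 2 of the 4 rose. Ifit3 was at 7.99, 8.86 and 7.82 FPKM in heated and 19.6, 20.7 and 23.0 FPKM in unheated YAP/TAZ siRNA libraries, against 4.93 and 4.95 FPKM in heated and 6.38, 8.49 and 8.28 FPKM in unheated control siRNA libraries. It rose by 1.35 ± 0.10 (adjusted p = 6.00e-06) without heat, and its copy Ifit3b by 1.00 ± 0.087 (adjusted p = 1.49e-05). Since reads from the copies can be exchanged, their separate values are uncertain.

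Ifit1 was at 2.07, 2.16 and 1.52 FPKM in heated and 6.498, 6.77 and 7.56 FPKM in unheated YAP/TAZ siRNA libraries, against 3.92 and 3.59 FPKM in heated and 5.21, 6.46 and 5.64 FPKM in unheated control siRNA libraries. Without heat the YAP/TAZ siRNA libraries began just above the highest control library, and the change of 0.23 ± 0.10 (adjusted p = 0.0902) was not called, except without heated YAP/TAZ siRNA replicate 3. Ifit2 was at 9.29, 10.3 and 8.61 FPKM in heated and 13.8, 15.1 and 11.9 FPKM in unheated YAP/TAZ siRNA libraries, against 6.29 and 8.37 FPKM in heated and 12.8, 12.7 and 11.7 FPKM in unheated control siRNA libraries. The unheated groups overlapped and the change of 0.12 ± 0.11 (adjusted p = 0.432) was not called. Whether these neighbours differed from each other was not tested.

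Of the OAS family, enzymes that make the 2′-5′ oligoadenylates which switch on RNase L, Oas1a rose without heat. Oas1a was at 17.7, 17.9 and 16.6 FPKM in heated and 15.7, 6.47 and 20.4 FPKM in unheated YAP/TAZ siRNA libraries, against 4.74 and 5.65 FPKM in heated and 4.08, 4.58 and 3.90 FPKM in unheated control siRNA libraries. Replicate 2 of the unheated YAP/TAZ siRNA cells was far below the other 2 and still above every control library. The change was 1.42 ± 0.31 (adjusted p = 0.00415), with the widest standard error of the tested members, and Oas1a has close paralogues that may share its reads. Oas2 changed by 0.87 ± 0.094 at levels of 1.16 to 1.42 FPKM in unheated YAP/TAZ siRNA libraries, against 0.170 to 0.284 FPKM in unheated control siRNA libraries.

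Oasl1, a family member without synthetase activity that in mice restrains translation of Irf7, was the exception of the family. It was at 0.574, 0.609 and 0.528 FPKM in heated and 0.624, 0.791 and 0.909 FPKM in unheated YAP/TAZ siRNA libraries, against 3.12 and 2.31 FPKM in heated and 0.735, 0.777 and 0.619 FPKM in unheated control siRNA libraries. The heated control siRNA libraries stood alone, and the other 9 lay between 0.528 and 0.909 FPKM. Without heat Oasl1 was not called (adjusted p = 0.693).

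Mx2, a gene of the dynamin-like GTPase family, was at 1.24, 1.54 and 1.11 FPKM in heated and 1.58, 1.91 and 1.82 FPKM in unheated YAP/TAZ siRNA libraries. It was at 1.64 and 1.71 FPKM in heated and 0.445, 0.346 and 0.3597 FPKM in unheated control siRNA libraries. The unheated control siRNA libraries were the low group here, and the rise without heat was 1.00 ± 0.082 (adjusted p = 1.10e-05). Rsad2 (viperin), which makes a chain-terminating nucleotide, rose by 1.08 ± 0.10 (adjusted p = 2.64e-05). Its neighbour Cmpk2, the kinase that supplies the substrate, rose by 0.64 ± 0.089 (adjusted p = 0.000281). Eif2ak2 (PKR), which halts translation on double-stranded RNA, rose by 0.64 ± 0.13 (adjusted p = 0.0024). Bst2 (tetherin), which holds budding virus at the cell surface, had the highest control level of the list, at 53.5 to 66.7 FPKM in unheated control siRNA libraries. It was at 57.8 to 79.8 FPKM in unheated YAP/TAZ siRNA libraries, and its change of 0.21 ± 0.12 (adjusted p = 0.197) was not called. Without replicate 2 of the unheated YAP/TAZ siRNA cells it was 0.33 and called.

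Both genes of the ISG15 system rose without heat. Isg15, a ubiquitin-like modifier, was at 14.99 to 23.3 FPKM in unheated YAP/TAZ siRNA libraries, against 6.81 to 8.21 FPKM in unheated control siRNA libraries, and rose by 1.18 ± 0.14 (adjusted p = 0.000115). Usp18 removes ISG15 from proteins and damps receptor signalling. It was at 2.94, 4.45 and 2.75 FPKM in heated and 4.48, 4.43 and 5.44 FPKM in unheated YAP/TAZ siRNA libraries, against 1.43 and 1.40 FPKM in heated and 1.40, 0.859 and 0.976 FPKM in unheated control siRNA libraries. Every YAP/TAZ siRNA library was above every control siRNA library, and Usp18 rose by 1.48 ± 0.15 (adjusted p = 3.91e-05) without heat. A long noncoding gene, Gm44148, covers much of Usp18 on the other strand.

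The ADP-ribosyltransferase genes and Dtx3l, whose product pairs with PARP9 in a ubiquitin ligase, rose without exception. Parp9 was at 6.19, 5.91 and 5.66 FPKM in heated and 7.48, 7.69 and 8.65 FPKM in unheated YAP/TAZ siRNA libraries, against 1.89 and 1.92 FPKM in heated and 2.85, 2.73 and 2.75 FPKM in unheated control siRNA libraries. The siRNA groups were far apart at both temperatures, and the rise without heat was 1.24 ± 0.060 (adjusted p = 6.08e-07), with the lowest adjusted p of any member in that comparison. Parp12 rose by 1.06 ± 0.098 (adjusted p = 2.37e-05) and Dtx3l by 0.92 ± 0.078 (adjusted p = 1.39e-05). Parp14, which reached 1 FPKM in YAP/TAZ siRNA libraries only, changed by 1.35 ± 0.092, with a mean FPKM 6.04 times that of control siRNA. Parp9 and Dtx3l share 682 bases on opposite strands.

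Trim21, a cytosolic antibody receptor and ubiquitin ligase, rose by 0.88 ± 0.070 (adjusted p = 9.18e-06). Of the guanylate-binding proteins, GTPases that attack vacuoles of intracellular pathogens, Gbp3 rose by 0.75 ± 0.12 (adjusted p = 0.000587), and Gbp7, which reached 1 FPKM in unheated YAP/TAZ siRNA libraries only, changed by 0.72 ± 0.098. Gbp2, in the same cluster on chromosome 3, had a change of -0.14 ± 0.14 (adjusted p = 0.452) and was not called. Ifi27, a small interferon-induced membrane protein gene, was the most abundant member in the cells with YAP/TAZ siRNA, at 102, 101 and 101 FPKM in heated and 92.8, 91.7 and 115 FPKM in unheated YAP/TAZ siRNA libraries, against 26.7 and 36.4 FPKM in heated and 28.3, 30.4 and 32.1 FPKM in unheated control siRNA libraries. The siRNA groups did not overlap, and Ifi27 rose by 1.68 ± 0.12 (adjusted p = 4.09e-06) without heat. Ifi35, a leucine-zipper protein gene, rose by 1.14 ± 0.088 (adjusted p = 8.20e-06). Xaf1, whose product opposes the apoptosis inhibitor XIAP, changed by 1.24 ± 0.075 and reached 1 FPKM in YAP/TAZ siRNA libraries only. All 24 calls without heat were kept in each of the alternative settings in which the gene was tested, leaving out any 1 library included. For Oas2, Gbp7, Parp14 and Xaf1 this is a description, since the filter fixed or favoured their difference.

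After heat the YAP/TAZ siRNA cells still had higher levels of most of these genes, with smaller differences. Of the 31 tested members, 19 rose and 2 fell with YAP/TAZ siRNA after heat, where 36.3% of all genes were called higher and 17.9% lower. Over the 28 members that reached 1 FPKM in at least 2 groups, 18 rose, Parp14 and Xaf1 among them, and 1 fell. The median log2 change was 0.45 over the 31 and 0.46 over the 28, against 0.13 over all genes tested. The groups did not overlap for 25 members that were higher and 3 that were lower, where this held for 46.0% and 24.6% of all genes. The heated groups are shared with the comparisons that follow, as are the unheated ones, so the comparisons are not independent of each other.

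**Figure D3:**
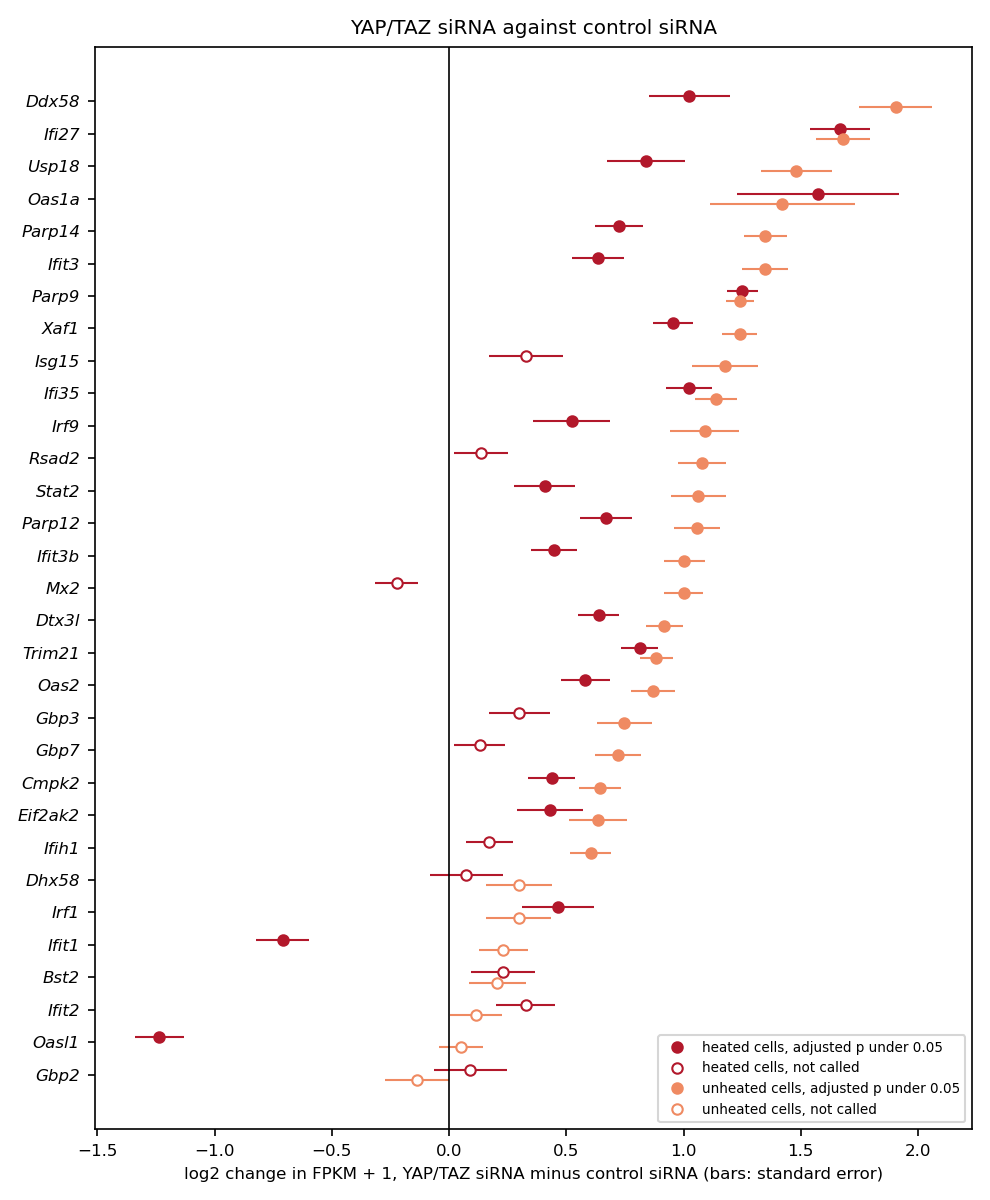
Log2 change of FPKM + 1 with YAP/TAZ siRNA against control siRNA for the 31 tested members, in heated cells (dark red) and unheated cells (orange). Bars are standard errors and filled points have an adjusted p under 0.05. Ddx58 is at 1.03 in heated and 1.90 in unheated cells, and Oasl1 and Ifit1 are the called genes below 0, both in heated cells.

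Of the 24 members that rose with YAP/TAZ siRNA without heat, 18 also rose after heat. Ifi27 had the largest rise after heat, 1.67 ± 0.13 (adjusted p = 8.58e-06), followed by Oas1a with 1.57 ± 0.35 (adjusted p = 0.00396) and Parp9 with 1.25 ± 0.067 (adjusted p = 1.10e-06). Ddx58 and Ifi35 rose by 1.03 ± 0.17 and 1.02 ± 0.099. Xaf1, Usp18, Trim21 and Parp14 rose by between 0.72 and 0.96. The transcription factor genes Irf9 and Stat2 rose by 0.52 ± 0.16 (adjusted p = 0.023) and 0.41 ± 0.13 (adjusted p = 0.0243), and Irf1, which was not called without heat, rose by 0.46 ± 0.15 (adjusted p = 0.0291). Oas2, Cmpk2, Eif2ak2, Parp12, Dtx3l, Ifit3 and Ifit3b rose by 0.43 to 0.67.

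The other 6, Ifih1, Mx2, Rsad2, Isg15, Gbp3 and Gbp7, rose without heat and were not called after it. Rsad2 was at 2.24 to 3.11 FPKM in heated YAP/TAZ siRNA libraries, against 2.12 to 2.35 FPKM in heated control siRNA libraries, a change of 0.14 ± 0.11 (adjusted p = 0.339). Isg15 was at 10.6 to 13.1 FPKM in heated YAP/TAZ siRNA libraries, against 9.15 and 9.27 FPKM in heated control siRNA libraries, a change of 0.33 ± 0.16 (adjusted p = 0.108) with no overlap of the groups. Mx2 lay lower in all 3 heated YAP/TAZ siRNA libraries than in either heated control siRNA library, with a change of -0.22 ± 0.092 (adjusted p = 0.0642). It was called lower with TPM, median-of-ratios and quantile scaling and without heated YAP/TAZ siRNA replicate 2. Isg15 was called higher without unheated YAP/TAZ siRNA replicate 2 or 3, and Gbp3 without heated YAP/TAZ siRNA replicate 3 (0.38).

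The 2 members called lower after heat were Ifit1, with a change of -0.71 ± 0.11 (adjusted p = 0.000702), and Oasl1, with a change of -1.23 ± 0.11. All 3 heated YAP/TAZ siRNA libraries were below both heated control siRNA libraries for each gene. Without either heated control siRNA library Oasl1 falls under the filter, since it reached 1 FPKM in those libraries only. Dhx58, Ifit2, Bst2 and Gbp2 were called in neither siRNA comparison. Ifit2 was at the edge after heat, with a change of 0.33 ± 0.12 (adjusted p = 0.050008) and no overlap of the groups, and it was called higher with a pseudocount of 0.1, with a filter of 5 FPKM and in 4 of the fits that left out 1 library (0.33 to 0.51). Of the 21 calls after heat, 17 were kept in every setting in which the gene was tested. Among these were Oasl1, Parp14 and Xaf1, whose difference the filter fixed or favoured. Irf9 was not called without heated control siRNA replicate 1 (0.41) or without heated YAP/TAZ siRNA replicate 2 (0.44), Stat2 without heated control siRNA replicate 3 (0.31), Eif2ak2 without heated control siRNA replicate 1 (0.32) or heated YAP/TAZ siRNA replicate 2 (0.30), and Irf1 without either heated control siRNA library or heated YAP/TAZ siRNA replicate 1 or 3 (0.44 to 0.48). Median-of-ratios scaling also ended all 4 of these calls, TPM scaling those of Irf9, Stat2 and Eif2ak2, quantile normalization that of Eif2ak2, the replicate block that of Stat2 (adjusted p = 0.0524) and no filter on level those of Irf1 and Eif2ak2.

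Heat lowered most of these genes in cells with YAP/TAZ siRNA. Of the 31 tested members, 23 fell and 0 rose with heat under YAP/TAZ siRNA, where 31.7% of all genes were called lower and 18.6% higher (0 members at an adjusted p under 0.05 in limma, 1 at an unadjusted p under 0.05). Of the 28 members that reached 1 FPKM in at least 2 groups, 21 fell. The median log2 change was -0.42 over the 31 and over the 28, against -0.086 over all genes tested. The heated YAP/TAZ siRNA libraries lay below every unheated one for 23 members and above for 1, Bst2, where this held for 36.0% and 21.3% of all genes. Of the 24 members that were higher with YAP/TAZ siRNA without heat, 19 fell with heat. Both comparisons use the unheated YAP/TAZ siRNA libraries, so a high value there enters each of them.

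The largest falls with heat under YAP/TAZ siRNA were those of Ifit1, Ifit3 and Stat2, whose libraries are given above. Ifit1 changed by -1.45 ± 0.10 (adjusted p = 1.46e-05), to a mean of 1.92 ± 0.345 FPKM in heated cells, against 6.94 ± 0.552 FPKM in unheated cells (SD, n = 3 each). Ifit3 changed by -1.26 ± 0.10 (adjusted p = 2.51e-05) and Stat2 by -1.06 ± 0.12 (adjusted p = 0.000138). Ifit3b changed by -0.96 ± 0.087. Ddx58 fell to a mean of 6.80 ± 1.86 FPKM in heated cells, against 11.5 ± 0.443 FPKM in unheated cells (SD, n = 3 each), a log2 change of -0.71 ± 0.16 (adjusted p = 0.00488). Parp14, Rsad2, Isg15, Dtx3l, Cmpk2, Gbp7, Parp12 and Ifit2 changed by -0.77 to -0.49. Trim21, Ifih1 and Parp9 changed by -0.42 to -0.37.

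The 8 members not called were Irf9, Dhx58, Oas1a, Oasl1, Bst2, Gbp3, Ifi27 and Ifi35. Ifi27 was at 101 ± 0.726 FPKM in heated and 99.7 ± 12.9 FPKM in unheated YAP/TAZ siRNA cells (SD, n = 3 each). Irf9 changed by -0.24 ± 0.15 (adjusted p = 0.198), with overlapping libraries. Of the 23 calls, 16 were kept in every setting in which the gene was tested. Gbp7 was among them, though it passed the filter only through unheated YAP/TAZ siRNA libraries. Irf1, Oas2, Mx2, Eif2ak2, Usp18, Gbp2 and Xaf1 were each lost without at least 1 YAP/TAZ siRNA library, heated replicate 3 among them for all 7, where their changes were -0.41, -0.30, -0.21, -0.30, -0.32, -0.39 and -0.18 in that order. All of these but Oas2 were also lost without at least 1 other YAP/TAZ siRNA library. Quantile normalization ended all 7 calls, and no filter on level all but that of Oas2. Median-of-ratios scaling ended those of Irf1, Eif2ak2, Usp18 and Xaf1, and a pseudocount of 0.1 those of Oas2, Usp18 and Xaf1. The call of Usp18 was also lost with the replicate block (limma, adjusted p = 0.0721). It was lost as well without unheated control siRNA replicate 3 or without either heated control siRNA library.

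**Figure D4:**
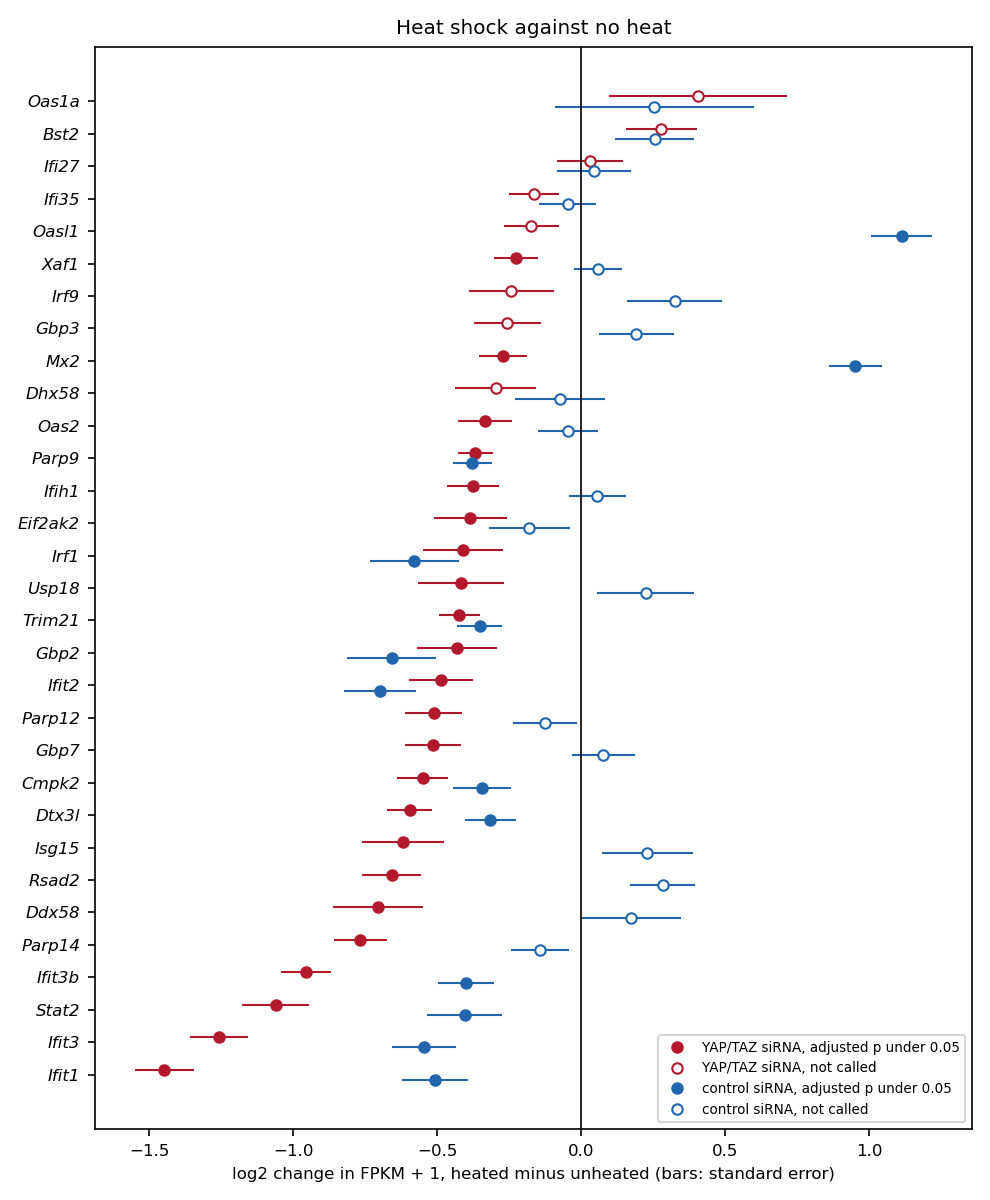
Log2 change of FPKM + 1 with heat for the 31 tested members, under YAP/TAZ siRNA (red) and control siRNA (blue). Bars are standard errors and filled points have an adjusted p under 0.05. Called changes under YAP/TAZ siRNA all lie below 0, and Oasl1 and Mx2 are the called genes above 0 under control siRNA.

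In control siRNA cells the members were called about as often as other genes. Of the 31 tested members, 2 were higher and 11 lower with heat under control siRNA, where 12.4% of all genes were called higher and 36.9% lower. Of the 28 members that reached 1 FPKM in at least 2 groups, 1 rose, Mx2, and 11 fell. The median log2 change was -0.048 over the 31 and -0.10 over the 28, against -0.16 over all genes tested, and the median of the 31 was above 0 after median-of-ratios scaling (0.061), where that of all genes was 0.0075. Quantile normalization (0.0074) and leaving out heated control siRNA replicate 1 (0.044) also put that median above 0. The heated libraries lay above every unheated one for 7 members and below for 13, where this held for 19.2% and 50.6% of all genes.

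Mx2 rose by 0.95 ± 0.092 (adjusted p = 3.00e-05). Oasl1, which reached 1 FPKM in the heated control siRNA libraries only, changed by 1.11 ± 0.11. Mx2 reached a mean of 1.68 ± 0.046 FPKM in heated control siRNA cells (SD, n = 2), against 0.384 ± 0.0535 FPKM in unheated control siRNA cells (SD, n = 3). Of the called falls, that of Ifit2 was the largest, -0.70 ± 0.12 (adjusted p = 0.00137), with both heated libraries below the 3 unheated ones. Gbp2 changed by -0.66 ± 0.15 (adjusted p = 0.00621), Irf1 by -0.58 ± 0.15 (adjusted p = 0.0117), Ifit3 by -0.55 ± 0.11 (adjusted p = 0.00297) and Ifit1 by -0.51 ± 0.11 (adjusted p = 0.00515). Stat2, Ifit3b, Parp9, Trim21, Cmpk2 and Dtx3l changed by -0.41 to -0.32. All 11 members that fell in control siRNA cells also fell in YAP/TAZ siRNA cells.

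A further 11 members fell under YAP/TAZ siRNA and were not called under control siRNA. Among these, Ddx58 changed by 0.17 ± 0.17 (adjusted p = 0.441), Rsad2 by 0.28 ± 0.11 (adjusted p = 0.0669), Isg15 by 0.23 ± 0.16 (adjusted p = 0.26) and Usp18 by 0.22 ± 0.17 (adjusted p = 0.3) under control siRNA, each on the positive side. Irf9 changed by 0.32 ± 0.16 (adjusted p = 0.134). It was called higher with the replicate block (0.43, adjusted p = 0.016), without unheated control siRNA replicate 2 (0.48) and after median-of-ratios scaling (0.46). Rsad2 was called higher with a pseudocount of 0.1 (0.41), median-of-ratios scaling (0.43), quantile normalization (0.39) and without heated YAP/TAZ siRNA replicate 2 (0.28).

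Only 2 heated control siRNA libraries were at hand, and 6 of the 13 calls (Ifit1, Ifit2, Ifit3, Oasl1, Mx2 and Parp9) were kept in every setting in which the gene was tested. Oasl1 passed the filter only through these libraries. It was not tested in the fits that left 1 of them out, so its call could not be lost there. Without heated control siRNA replicate 1 or without replicate 3 the count was 7. Without replicate 1 the changes of Irf1 (-0.59), Cmpk2 (-0.36), Dtx3l (-0.29), Trim21 (-0.29) and Gbp2 (-0.51) were no longer called, and without replicate 3 those of Irf1 (-0.57), Stat2 (-0.31), Ifit3b (-0.37), Cmpk2 (-0.33) and Dtx3l (-0.34). Stat2 was also lost without unheated control siRNA replicate 1 (-0.35) or 3 (-0.40), with the replicate block (-0.39, adjusted p = 0.0585), median-of-ratios scaling (-0.28), quantile normalization (-0.34) and no filter on level (-0.41). Median-of-ratios scaling also ended the calls of Cmpk2 (-0.23) and Dtx3l (-0.22).

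The heated control siRNA libraries also had higher sums of some markers of other cell types. The 6 fibroblast markers summed to 0.895 and 0.975 FPKM there, lower than the 1.72 to 1.98 FPKM of unheated control siRNA libraries. Under YAP/TAZ siRNA they summed to 0.626 to 0.657 FPKM in heated and 0.730 to 0.973 FPKM in unheated libraries. The 8 macrophage and myeloid markers summed to 6.32 and 6.73 FPKM in heated control siRNA libraries, against 2.34 to 2.64 FPKM in unheated ones, and 2.83 to 3.42 FPKM in heated against 1.57 to 2.05 FPKM in unheated YAP/TAZ siRNA libraries. Cd68, a lysosomal membrane protein gene, and Lyz2, a lysozyme gene, carried these sums, and Ptprc was at 0. The 8 lymphocyte markers summed to 1.92 FPKM in both heated control siRNA libraries, against 0.125 to 0.317 FPKM in unheated ones, through Cd79a, and to 0.181 to 0.365 FPKM in heated against 0.0437 to 0.239 FPKM in unheated YAP/TAZ siRNA libraries. The 5 plasmacytoid dendritic cell markers summed to 0.479 and 1.06 FPKM in heated control siRNA libraries, against 0.316 to 0.681 FPKM in unheated ones, and to at most 0.0849 FPKM in heated and 0.29 FPKM in unheated YAP/TAZ siRNA libraries. Cox6a2, a cytochrome c oxidase subunit gene, carried that sum, with Siglech at 0, and the heated and unheated control siRNA libraries overlapped. The 4 endothelial markers summed to 0.929 and 1.08 FPKM, against 0.00348 to 0.0592 FPKM, through Pecam1, with Cdh5 at 0. The part of such transcripts in the changes of the interferon-stimulated genes was not tested. Genes above 0 numbered 23173 and 23242 in these 2 libraries, against 20000 to 21662 in the other 9.

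The difference between the 2 heat responses, YAP/TAZ siRNA minus control siRNA, was tested as the interaction. Of the 31 tested members, 13 had a lower heat response under YAP/TAZ siRNA and 0 a higher one, where 13.4% of all genes were called lower and 24.6% higher (0 members were higher at an unadjusted p under 0.05 in limma). Of the 28 members that reached 1 FPKM in at least 2 groups, which leave out Gbp7 and Oasl1, 11 were lower. The median was -0.39 over the 31 and -0.33 over the 28, against 0.11 over all genes tested. Mx2 (-1.22 ± 0.12, adjusted p = 0.000112) had the largest difference of the 28, and rose with heat in control siRNA cells but fell with the YAP/TAZ pool. For Oasl1 the difference was -1.29 ± 0.14.

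Ifit1 had the next largest difference, -0.94 ± 0.15 (adjusted p = 0.00156), and fell with heat under both siRNAs, by more under YAP/TAZ siRNA. Stat2 (-0.66 ± 0.17, adjusted p = 0.0164), Ifit3 (-0.71 ± 0.15, adjusted p = 0.00545) and Ifit3b (-0.56 ± 0.13, adjusted p = 0.0091) followed the same course. Rsad2 (-0.94 ± 0.15, adjusted p = 0.00153), Ddx58 (-0.88 ± 0.23, adjusted p = 0.0161), Isg15 (-0.85 ± 0.21, adjusted p = 0.0123) and Usp18 (-0.64 ± 0.22, adjusted p = 0.0488) fell under YAP/TAZ siRNA and were not called under control siRNA. The same held for Ifih1 and Parp14, with differences of -0.43 ± 0.13 and -0.62 ± 0.14, and the difference of Gbp7 was -0.59 ± 0.15.

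Another 12 members rose with YAP/TAZ siRNA with and without heat and had no called interaction. For Ifi27 the interaction was -0.014 ± 0.17 (adjusted p = 0.959) and for Parp9 0.010 ± 0.090 (adjusted p = 0.941), which does not show that the heat responses were alike. With quantile normalization the interaction of Ifi27 was -0.43 and called (adjusted p = 0.048). Irf9 (-0.57 ± 0.22, adjusted p = 0.0704), Xaf1 (-0.28 ± 0.11, adjusted p = 0.0767) and Ifi35 (-0.12 ± 0.13, adjusted p = 0.527) were on the negative side without a call. That of Irf9 was called with the replicate block (-0.67, adjusted p = 0.0102), median-of-ratios scaling (-0.65) and without unheated control siRNA replicate 2 (-0.72) or unheated YAP/TAZ siRNA replicate 3 (-0.66). That of Xaf1 was called with TPM (-0.37) and median-of-ratios scaling (-0.32) and without heated YAP/TAZ siRNA replicate 2 (-0.36). On a log scale with a pseudocount, the interaction depends on the level without heat, which differed between the siRNAs for most of these genes.

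Of the 13 interaction calls, 7 (Ifit1, Ifit3, Ifit3b, Oasl1, Mx2, Rsad2 and Isg15) were kept in every setting in which the gene was tested. That of Oasl1 is a description, since the gene was not tested in the fits that left out a heated control siRNA library. Leaving out a heated control siRNA library ended the calls of Stat2 (-0.56 without replicate 1), Gbp7 (-0.58 without replicate 1) and Ddx58 (-0.76 without replicate 3), and the count was 8 without replicate 1. Ifih1 was lost in 8 and Usp18 in 9 of the 11 fits that left out 1 library, with changes of -0.45 to -0.38 for Ifih1 and -0.68 to -0.54 for Usp18. Both were also lost with quantile normalization and no filter on level, Usp18 with the replicate block (adjusted p = 0.0768), Parp14 with a pseudocount of 0.1 or quantile normalization and Gbp7 with quantile normalization.

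Set beside the promoters printed above, 9 of the 10 members with a called interaction and a RefSeq window had an ISRE core. Of the 14 tested members with a window and no called interaction, 6 did. The 9 hold both copies Ifit3 and Ifit3b, and Gbp7, which passed the filter through 1 group only. Among the 9, the interaction calls of Stat2, Ddx58, Ifih1 and Gbp7 were lost in some settings. Among members that rose with YAP/TAZ siRNA without heat the count was 12 of 18, and among those not called 3 of 6. These counts describe a few genes chosen for 1 pathway, and a match shows only that the letters are present. Oasl1 was the member with a called interaction whose window had no core. Ifit2, Irf1, Irf9, Ifi35, Xaf1, Dtx3l, Parp12 and Cmpk2, and of the members not tested Irf7, Oasl2, Trim25 and Ifi44, had no ISRE core within their 300 bases either.

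Among the members that were not tested, Irf7, the factor that amplifies interferon alpha production, was at 0.570, 0.556 and 0.490 FPKM in heated and 0.611, 0.574 and 0.689 FPKM in unheated YAP/TAZ siRNA libraries, against 0.915 and 1.23 FPKM in heated and 0.178, 0.123 and 0.201 FPKM in unheated control siRNA libraries. The heated control siRNA libraries were the highest and the unheated control siRNA libraries the lowest. Zbp1, a sensor of Z-form nucleic acid, was at 0.12, 0.165 and 0.119 FPKM in heated and 0.137, 0.164 and 0.148 FPKM in unheated YAP/TAZ siRNA libraries, against 0.140 and 0.0838 FPKM in heated and 0.0899, 0.0962 and 0.0762 FPKM in unheated control siRNA libraries. Mx1 lay between 0.264 and 0.685 FPKM and Oasl2 between 0.126 and 0.375 FPKM over all libraries. Oas3, Trim25 and Ifi44 reached at most 0.0549, 0.0701 and 0.0609 FPKM in any library.

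Other genes of the pathway were read from lists written beside the members. None of 12 interferon genes reached the threshold, and the highest value of any of them was 0.296 FPKM, in a heated YAP/TAZ siRNA library. Their sums, all near the floor, were 0.135 to 0.296 FPKM in heated and 0 to 0.0561 FPKM in unheated YAP/TAZ siRNA libraries. Under control siRNA they were 0.0257 and 0.163 FPKM in heated and 0 to 0.0275 FPKM in unheated libraries. Ifnb1, the first interferon that most cells make, was listed at 0 in all 11 libraries. Of 9 tested genes for interferon receptor chains and Janus kinases, 8 rose and 0 fell with YAP/TAZ siRNA without heat, with a median of 0.42, where 27.1% of all genes were called higher and 21.9% lower with a median of 0.023. After heat 6 rose and 1 fell, with a median of 0.44, where 36.3% were called higher and 17.9% lower with a median of 0.13. Ifngr2, a chain of the interferon gamma receptor, rose by 0.82 ± 0.061 (adjusted p = 6.37e-06) without heat, and Il10rb, a chain of the interferon lambda and interleukin 10 receptors, by 1.03 ± 0.11 (adjusted p = 6.11e-05). Il10rb was at 38.9, 41.0 and 41.4 FPKM in unheated YAP/TAZ siRNA libraries, against 18.6, 18.9 and 20.4 FPKM in unheated control siRNA libraries, with no overlap.

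**Figure D5:**
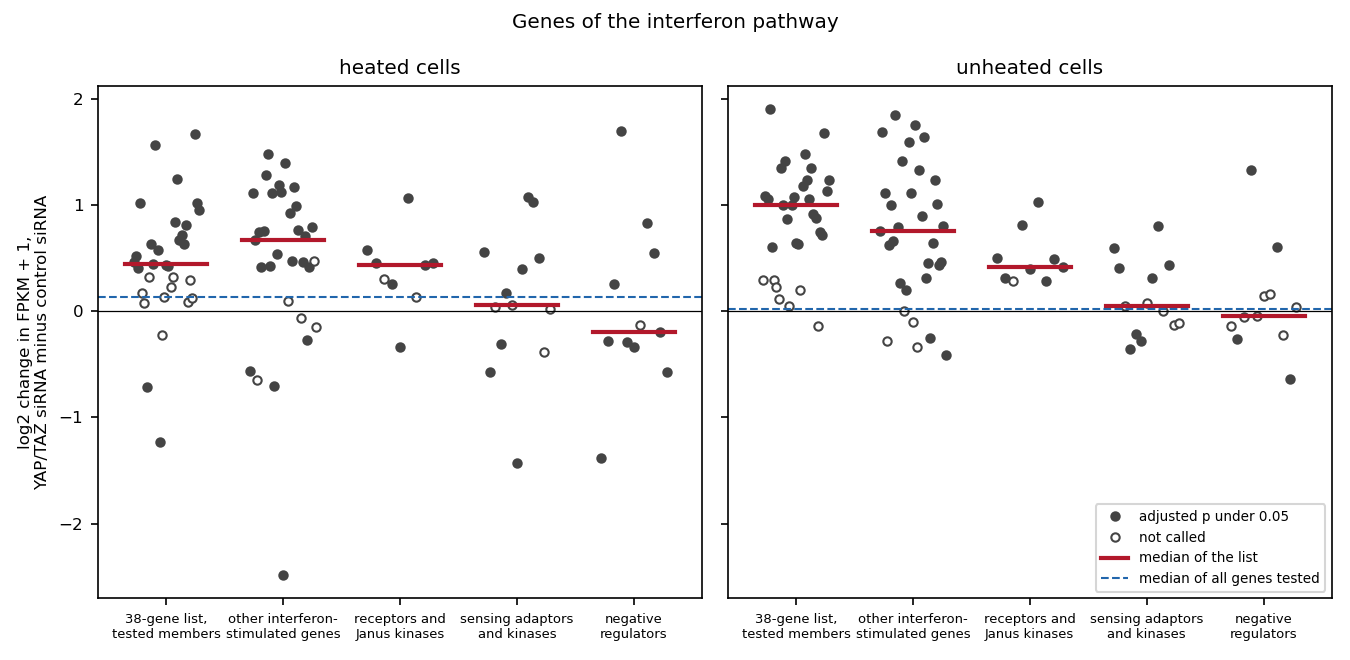
Log2 change of FPKM + 1 with YAP/TAZ siRNA against control siRNA in heated and unheated cells, for the tested genes of 5 lists. Each point is a gene, filled where its adjusted p is under 0.05, with red bars for the median of a list and the dashed line for the median of all genes tested. The medians of the 38-gene list and of the other interferon-stimulated genes are 0.45 and 0.67 in heated cells and 1.00 and 0.76 in unheated cells.

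The sensors, adaptors and kinases upstream of interferon were called at shares near those of all genes. Of 13 tested, 5 rose and 3 fell with YAP/TAZ siRNA without heat, with a median of 0.051, where 27.1% and 21.9% of all genes did. After heat 6 rose and 3 fell, with a median of 0.057, where 36.3% and 17.9% of all genes did. Ikbke, a kinase of interferon regulatory factors, rose by 0.80 ± 0.050 (adjusted p = 2.55e-06) without heat and 1.08 ± 0.056 (adjusted p = 9.14e-07) after heat. Irf3, the factor that this kinase activates, was at 8.54, 7.11 and 8.54 FPKM in heated and 7.83, 7.94 and 7.97 FPKM in unheated YAP/TAZ siRNA libraries, against 3.38 and 3.48 FPKM in heated and 7.66, 7.92 and 8.17 FPKM in unheated control siRNA libraries. Only the heated control siRNA libraries were low, and the interaction was 1.03 ± 0.099 (adjusted p = 8.95e-05). Among 11 tested negative regulators, 2 rose and 2 fell with YAP/TAZ siRNA without heat, where 27.1% and 21.9% of all genes did. Their median was -0.045, against 0.023 over all genes. With YAP/TAZ siRNA after heat 4 rose and 6 fell, where 36.3% and 17.9% of all genes did. The median was then -0.19, against 0.13 over all genes. The phosphatase gene Ptpn6 rose by 1.34 ± 0.074 (adjusted p = 1.37e-06) without heat. In heated cells Socs3, a feedback inhibitor of Janus kinases, was lower with YAP/TAZ siRNA than with control siRNA (-1.38 ± 0.13, limma, adjusted p = 2.78e-05). With heat under control siRNA Socs3 rose by 0.86 ± 0.13 (adjusted p = 0.000531), and its interaction was -1.24 ± 0.18 (adjusted p = 0.000715).

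Of a list of 52 other interferon-stimulated genes, 31 were tested. With YAP/TAZ siRNA without heat 25 were higher and 2 lower, with a median of 0.76, beside 27.1% and 21.9% of all genes. After heat 22 were higher and 4 lower, with a median of 0.67, beside 36.3% and 17.9% of all genes. The list was written with earlier results of these data known. Genes that passed the filter only through the groups where they were high, as Isg20 did, were not taken out of these counts. Irgm2, an immunity-related GTPase, changed by 1.69 ± 0.091 without heat. Whether the filter of 1 FPKM favoured its difference was not examined, so the value is given as a description. Samd9l, an antiviral factor, rose by 1.76 ± 0.10 (adjusted p = 1.74e-06), and Ube2l6, the conjugating enzyme of ISG15, by 1.59 ± 0.090 (adjusted p = 1.48e-06). With heat under YAP/TAZ siRNA 2 of the 31 rose and 15 fell, where 18.6% and 31.7% of all genes did. With heat under control siRNA 3 were called higher and 10 lower, near the 12.4% and 36.9% of all genes. The interaction was higher for 4 and lower for 8, where it was for 24.6% and 13.4% of all genes. Isg20, an antiviral exonuclease, was at 0.203, 0.371 and 0.231 FPKM in heated and 0.288, 0.198 and 0.283 FPKM in unheated YAP/TAZ siRNA libraries, against 7.22 and 5.12 FPKM in heated and 0.348, 0.324 and 0.3605 FPKM in unheated control siRNA libraries. The heated control siRNA libraries stood alone, as for Oasl1. Isg20 likewise reached 1 FPKM in those libraries only, and its change with heat under control siRNA was 2.40 ± 0.12 and its interaction -2.39 ± 0.16, as a description.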

How the data were processed

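RNA sequencing of 11 libraries was analysed from 1 gene table of FPKM values that the authors deposited. Per the submitters' processing notes, Trimmomatic 0.36, HISAT2, SAMtools, StringTie and DESeq2 were used with the GRCm38 genome; for their roles, settings and strandedness, the sources used here say nothing. Every column of values belonged to a labelled sample. Of 54104 Ensembl identifiers, 54038 matched a symbol, and 582 entries were assembled loci. Gene positions are from GENCODE M21 and promoters from RefSeq (GRCm38.p6). No counts came with the table and whole reads could not be recovered, so count models were not used. FPKM were tested as log2(FPKM + 1) with limma 3.58.1 (R 4.3.3, empirical Bayes with trend) on the 12626 genes with at least 1 FPKM in 2 libraries. All 11 libraries entered 1 fit with a mean per group and 7 residual degrees of freedom, and p-values of each of the 5 comparisons were adjusted over all genes (Benjamini-Hochberg). A gene was called at an adjusted p under 0.05. The fit was tested on simulated data.

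Values are given for every library for transcription factors, sensors, the 3 called members with the largest change in each comparison, and Yap1. Wwtr1 is given by range. From the other lists, at most 3 called genes with the lowest adjusted p per list and comparison were named, and 1 gene is not reported here. The members, lists and alternatives were chosen with earlier results of these data known. The labels name no batch. The 18 alternatives changed the pseudocount, the filter, the scaling, the replicate block or left out 1 library. Tables, motif searches and figures used Python 3.11.15, pandas 2.3.3, Biopython 1.88 and matplotlib 3.10.9.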

Additional observations from a re-analysis of the deposited data

Results flagged for a closer look

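For 13 members the heat response under YAP/TAZ siRNA differed from that under control siRNA by the interaction test in limma (adjusted p under 0.05), where 13.4% of all genes tested were called lower and 24.6% higher. All 13 differences were negative, that is, the log2 change with heat was lower under YAP/TAZ siRNA. They were -1.29 for Oasl1, -1.22 for Mx2, -0.94 for Ifit1, -0.94 for Rsad2, -0.88 for Ddx58, -0.85 for Isg15, -0.71 for Ifit3, -0.66 for Stat2, -0.64 for Usp18, -0.62 for Parp14, -0.59 for Gbp7, -0.56 for Ifit3b and -0.43 for Ifih1. Oasl1 and Mx2 were the members that rose with heat under control siRNA. Gbp7 and Oasl1 reached 1 FPKM in 1 group only, so they had to differ between groups, and 11 of the 13 remain without them.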

How the results depend on the processing

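Of 270 counts of called members under alternatives, 244 stayed within 1.5 times the value given above. A filter of 5 FPKM left 14 members to test and gave 11 higher with YAP/TAZ siRNA without heat, 12 called after heat (11 higher, 1 lower), 10 lower with heat under YAP/TAZ siRNA, 6 called with heat under control siRNA (0 higher, 6 lower) and 6 lower for the interaction; fewer genes were tested by construction. Median-of-ratios scaling gave 5 higher with heat under control siRNA and 1 higher under YAP/TAZ siRNA.

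Leaving out 1 library gave 7 to 14 called with heat under control siRNA (1 to 3 higher, 6 to 11 lower), 0 to 1 higher with heat under YAP/TAZ siRNA, 8 to 17 lower for the interaction and 1 to 3 lower with YAP/TAZ siRNA after heat. A lone heated control siRNA library was then assumed to vary like the other groups. The falls with heat under YAP/TAZ siRNA numbered 16 to 23 when 1 library was left out, and the rises with YAP/TAZ siRNA without heat 24 to 26. With YAP/TAZ siRNA after heat, the rises of Irf1, Irf9, Stat2 and Eif2ak2 were not called in some of these fits.

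Replicate numbers are shared between groups. The deviations of same-numbered samples correlated at only -0.11 to 0.134 over 15 pairs, 3 of them above 0.1, and the numbers were not taken as pairs. Yet 7 of 11 samples correlated best with their own number, so this check does not settle pairing, and a fit with the replicate block is given beside. With the replicate block, 1 member was higher with heat under YAP/TAZ siRNA and 16 were lower for the interaction.

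Of 3169 values of single genes, 3004 kept direction and call, 124 lost a call, 31 gained one and 10 changed sign. The sign changes were all in interactions near 0 that were not called in those settings. That of Ifi27 was -0.43 and called with quantile normalization (limma, adjusted p = 0.048), 0.0040 with the replicate block and -0.23 to 0.20 over the fits that left out 1 library, 3 of which were above 0. That of Parp9 was -0.079 with TPM scaling, -0.073 with median-of-ratios scaling and -0.027 to 0.066 over the fits that left out 1 library, 4 of which were below 0. The cause was not tested. Depth limits the members near 1 FPKM, and 2 heated control siRNA libraries limit every comparison that uses them.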

Other observations

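Irgm1, an immunity-related GTPase outside the 38-gene list, was at 2.65, 2.55 and 2.32 FPKM in heated and 7.79, 9.34 and 9.38 FPKM in unheated YAP/TAZ siRNA libraries, against 4.29 and 4.04 FPKM in heated and 4.50, 4.89 and 5.04 FPKM in unheated control siRNA libraries. The unheated YAP/TAZ siRNA libraries were the highest and the heated ones the lowest of the 4 groups. The interaction was -1.31 ± 0.12 (adjusted p = 5.44e-05) in limma. Znfx1, an RNA sensor of the outer mitochondrial membrane, was at 14.0, 15.9 and 13.2 FPKM in heated and 20.5, 19.5 and 17.9 FPKM in unheated YAP/TAZ siRNA libraries, against 18.5 and 16.5 FPKM in heated and 9.75, 8.87 and 8.63 FPKM in unheated control siRNA libraries. Its 3 unheated control siRNA libraries were below all 8 others, the course also seen for Mx2, and the interaction was -1.28 ± 0.12 (adjusted p = 8.92e-05).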
